A study of Mus musculus with 12 samples.

Results

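The 49 genes described here sense damaged DNA, relay that signal or carry out the repair. They were taken by name from the DNA damage checkpoint and the main repair pathways, and each matched 1 of the 53465 mouse genes in the table of counts. They comprise 8 genes of checkpoint signalling, 13 of homologous recombination, 9 of the Fanconi anaemia pathway, 6 of end joining, 5 of nucleotide excision repair, 2 translesion polymerases, 5 of base excision and single-strand break repair, and 1 of mismatch repair. All 49 had enough counts to be tested, and the list was drawn up with earlier results of these data known.

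RNA was sequenced in bulk from mouse hematopoietic stem cells (HSCs), which were sorted from bone marrow and kept in Stemline II medium with the cytokines SCF and Flt3 for 2 days. The 4 groups of 3 samples were long-term HSCs (LT-HSCs) with 1 mM nicotinamide riboside (NR), control LT-HSCs without it, short-term HSCs (ST-HSCs) with 1 mM NR, and control ST-HSCs without it. NR is a form of vitamin B3 that cells turn into nicotinamide adenine dinucleotide (NAD), and it was renewed once during the culture. Every sorted cell was lineage-negative, Kit+, Sca1+, CD150+ and CD48-, and LT-HSCs were CD34- whereas ST-HSCs were CD34+. The labels name no strain, age or sex of the mice. Nothing states that the samples of a group came from separate animals or cultures, so a p-value covers no more than how these libraries vary, and that variation may be technical.

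Broken or unreplicated DNA activates the kinases ATM and ATR, which stop the cell cycle through CHEK1 and CHEK2 and mark the damaged chromatin for repair. Double-strand breaks are closed by end joining, in which the Ku proteins hold the ends, or by homologous recombination, which copies an intact sister chromatid and so works after the DNA has been replicated. The Fanconi anaemia proteins unhook cross-linked strands, excision repair cuts out bulky lesions or altered bases, and translesion polymerases copy past lesions that remain. HSCs live long and divide seldom, and defects of the Fanconi pathway exhaust them in humans and mice. The transcription factor p53, which damage stabilises, switches on some of these repair genes in mouse or human cells.

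Between 24.6 M and 35.5 M reads were counted in genes per library. Sample 3 of the NR LT-HSCs had 28.55% of its reads in no annotated gene and sample 3 of the NR ST-HSCs 26.2%, against 8.69% to 16.99% in the other 10 libraries. They are called the 2 libraries rich in unassigned reads below. Values are CPM, which are counts scaled to the library's total and by TMM factors, and changes are log2 fold changes with their standard error (SE). A gene was called where its adjusted p in edgeR was under 0.05. Among the genes used for sorting, Kit lay between 1340 and 1720 CPM and Cd34 was 1.54 lower on the log2 scale in LT-HSCs than in ST-HSCs with NR (adjusted p = 1.31e-07) and 1.27 lower in control culture (adjusted p = 5.47e-07). Ly6a (Sca1) ranged from 5.51 to 47.6 CPM, Slamf1 (CD150) from 10.3 to 43.5 CPM and Cd48 from 0.259 to 6.25 CPM. Of the 5 sort genes, 2 were higher and 2 lower in LT-HSCs in control culture (log2 differences from -2.60 to 2.59). With NR, 2 were higher and 1 lower in LT-HSCs (-1.63 to 2.02). In ST-HSCs 1 of the 5 fell with NR. Markers of other blood cells were present at differing levels. Of these, 5 of 8 erythroid, 2 of 14 myeloid, 2 of 6 mast cell and basophil, and 7 of 11 lymphoid markers averaged under 1 CPM, and Hba-a1, Hba-a2 and Cd8a had a median of 0 CPM. The erythroid markers summed to 67.9 to 76.5 CPM in NR LT-HSCs against 92.8 to 99.2 CPM in control LT-HSCs, and to 34.5 to 40.2 CPM in NR ST-HSCs against 50.3 to 60.8 CPM in control ST-HSCs. The myeloid markers, led by Prtn3 (40.7 to 62.9 CPM), summed to 83.4 to 209 CPM in NR LT-HSCs against 113 to 146 CPM in control LT-HSCs, and to 99.9 to 190 CPM in NR ST-HSCs against 99.2 to 149 CPM in control ST-HSCs. The lymphoid and the mast cell sums also overlapped between NR and control libraries. In each cell type Epor of the erythroid list and Nkg7 of the lymphoid list fell with NR, Cd68 of the myeloid list rose, and 0 mast cell markers were called. The 7 megakaryocyte markers, which HSCs also express, summed to 1950 to 2640 CPM in NR LT-HSCs against 3140 to 3590 CPM in control LT-HSCs, and to 1850 to 2420 CPM in NR ST-HSCs against 3120 to 3440 CPM in control ST-HSCs. Their part in the results was not tested. In bulk RNA, a smaller number of cells of one type and less RNA per cell cannot be told apart.

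With NR, the genes called as rises all belonged to nucleotide excision repair or were translesion polymerases. Those called as falls belonged to end joining and base excision repair and, in ST-HSCs, also to recombination, the Fanconi pathway and checkpoint signalling. Under some other settings, given below, Chek2 of checkpoint signalling and Rtel1 of recombination rose in LT-HSCs as well. In LT-HSCs 4 of 49 genes rose (8.16%) and 5 fell (10.2%), while 2.38% of the 19830 genes tested rose and 7.58% fell, 9.96% in all. In ST-HSCs 4 of 49 rose (8.16%) and 19 fell (38.8%), while 5.82% of all genes rose and 11.1% fell, 16.9% in all. The median change of the 49 genes was -0.09 in LT-HSCs, where that of all genes was 0.04, and -0.19 in ST-HSCs, where that of all genes was -0.03. The 49 genes had a median level of 65.8 CPM, so genes with a mean of at least 5 CPM are a closer background. Of these 10473 genes, 440 rose and 1466 fell in LT-HSCs, and 1004 rose and 2091 fell in ST-HSCs. Their median change was -0.06 in LT-HSCs and -0.08 in ST-HSCs. Against them, the 49 genes had a larger share of rises and a smaller share of falls in LT-HSCs. In ST-HSCs the 49 genes had a smaller share of rises and a larger share of falls.

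Ddb2, Polk and Xpc rose in both cell types, and Apex1, Prkdc, Xrcc5 and Xrcc6 fell in both. Polh and Ung passed the test in LT-HSCs and not in ST-HSCs. Ercc5 and 15 of the genes that fell passed it in ST-HSCs and not in LT-HSCs, and 24 genes passed in neither. No gene was called in opposite directions. When the effect of NR was averaged over both cell types, 5 genes rose and 22 fell, while 7.88% of all genes rose and 16.1% fell, 24% in all. The average added Atm, Rnf168, Nbn, Xrcc1 and Ogg1 to the genes that fell, and Atr (adjusted p = 0.0826), Rad54l (adjusted p = 0.0572) and Rtel1 (adjusted p = 0.201), which fell in ST-HSCs, did not pass for it. The added calls were unsteady: with 1 of the 12 libraries left out, Nbn kept its call in 1 of 12 fits (adjusted p of up to 0.344), Ogg1 in 1 (0.219), Rnf168 in 4 (0.409), Atm in 6 (0.0863) and Xrcc1 in 9 (0.11).

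The number of calls depended on single libraries, more so in LT-HSCs. With the same genes tested, 4 of the 49 genes were called without NR LT-HSC sample 1, 5 without NR sample 3, 5 without control sample 1 and 4 without control sample 3, against 9 with all libraries. The share of all genes called fell too, from 9.96% to 5.74%, 7.1%, 6.66% and 6.94% in those fits. In ST-HSCs 15 genes were called without NR sample 3, against 23, while the share of all genes went from 16.9% to 12%. Without the 2 libraries rich in unassigned reads, 5 genes rose and 3 fell in LT-HSCs, and 5 rose and 11 fell in ST-HSCs. In these fits 7.05% and 14% of all genes were called. Scaling also moved the split in LT-HSCs: with upper-quartile factors 6 rose and 4 fell, and with TMM factors from genes of at least 5 CPM 6 rose and 4 fell. For the averaged effect, those numbers were 8 and 15, and 8 and 11. In ST-HSCs they were 4 and 15, and 5 and 14. The added rises in LT-HSCs were Chek2 (adjusted p = 0.0293 with upper-quartile factors and 0.0175 with those TMM factors) and Rtel1 (0.0253 and 0.0153). The split over all genes moved as well: rises made up 23.9% of all calls in LT-HSCs and 34.5% in ST-HSCs with the TMM factors of all genes, against 43.6% and 54.4% with TMM factors from genes of at least 5 CPM.

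Promoter sequences were looked up in RefSeq (GRCm38.p6, 250 bases before to 50 bases after the start) and were found for 41 of the 49 genes. A core of the E2F motif (TTCCCGC or TTGGCGC on either strand), through which E2F factors drive genes of the replicating cell, occurred in 19 of the 41 promoters (46.3%), against 8.84% of 17492 promoters of protein-coding genes. The longer E2F forms TTTGGCGC and TTTCCCGC, which contain the core, occurred in 8 of the 41 (19.5%), against 2.10%. A 10-letter p53 half-site occurred in 2 of the 41 (4.88%), in Fanca and Fancg, against 7.32%. No promoter was found for Xpc and Ddb2, which rose in both cell types, so these genes were not searched for any motif. In ST-HSCs the core occurred in 6 of 16 promoters of genes that fell, in 12 of 23 of genes that were not called, and in 1 of 2 of genes that rose. In LT-HSCs it occurred in 2 of 4 promoters of genes that fell, in 17 of 35 of genes that were not called, and in 0 of 2 of genes that rose. These shares were not tested. The 5 promoters printed here are those of Xrcc6, which fell in both cell types, of Brca2 and Fanci, which fell in ST-HSCs, and of Ercc5 and Polk, which rose, so that promoters with and without the core can be set side by side. Capitals mark the E2F core, read 5′ to 3′ on the strand of the gene, and the promoter of Polk has none.
Xrcc6, chr15:82016119-82016418, plus strand: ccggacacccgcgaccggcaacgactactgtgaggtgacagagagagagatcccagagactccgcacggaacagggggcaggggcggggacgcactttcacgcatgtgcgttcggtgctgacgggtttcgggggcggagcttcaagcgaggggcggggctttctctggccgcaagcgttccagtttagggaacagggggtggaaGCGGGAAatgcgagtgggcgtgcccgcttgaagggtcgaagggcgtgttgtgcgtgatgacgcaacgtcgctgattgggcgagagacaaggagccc
Brca2, chr5:150522371-150522670, plus strand: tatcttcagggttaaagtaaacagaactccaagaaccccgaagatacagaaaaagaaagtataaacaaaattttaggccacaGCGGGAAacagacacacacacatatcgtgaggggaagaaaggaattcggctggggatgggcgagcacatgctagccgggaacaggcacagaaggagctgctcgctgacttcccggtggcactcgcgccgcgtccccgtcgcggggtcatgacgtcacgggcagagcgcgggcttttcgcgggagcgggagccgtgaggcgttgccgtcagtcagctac
Fanci, chr7:79392088-79392387, plus strand: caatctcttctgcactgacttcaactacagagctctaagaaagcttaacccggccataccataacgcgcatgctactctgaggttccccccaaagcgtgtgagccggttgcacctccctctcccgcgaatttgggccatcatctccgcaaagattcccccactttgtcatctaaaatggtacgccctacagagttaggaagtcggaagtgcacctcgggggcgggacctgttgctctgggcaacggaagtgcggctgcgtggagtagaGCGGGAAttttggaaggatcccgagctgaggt
Ercc5, chr1:44147494-44147793, plus strand: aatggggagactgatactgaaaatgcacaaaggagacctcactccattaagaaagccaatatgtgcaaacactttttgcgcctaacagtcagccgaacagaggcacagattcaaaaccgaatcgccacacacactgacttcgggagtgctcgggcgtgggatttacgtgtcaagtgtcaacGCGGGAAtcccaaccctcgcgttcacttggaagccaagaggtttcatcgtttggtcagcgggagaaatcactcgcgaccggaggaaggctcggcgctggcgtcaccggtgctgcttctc
Polk, chr13:96542530-96542829, minus strand: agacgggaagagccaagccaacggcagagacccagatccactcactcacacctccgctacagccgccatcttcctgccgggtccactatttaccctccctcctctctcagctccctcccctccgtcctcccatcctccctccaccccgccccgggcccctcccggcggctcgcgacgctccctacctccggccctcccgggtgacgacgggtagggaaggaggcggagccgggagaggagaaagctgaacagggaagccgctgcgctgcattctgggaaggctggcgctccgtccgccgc
A match is a stretch of letters and not a measured binding site.

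Nucleotide excision repair cuts out bulky lesions, and 3 of its 5 genes measured here rose with NR. Their summed level was 213 ± 13.5 CPM in NR LT-HSCs and 184 ± 9.94 CPM in control LT-HSCs, and 267 ± 11.3 CPM in NR ST-HSCs and 183 ± 4.75 CPM in control ST-HSCs (SD, n = 3 each). Xpc and Ddb2 rose in both cell types and Ercc5 in ST-HSCs, while Xpa and Ercc1 passed in neither.

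Xpc recognises distorted DNA as the first step of genome-wide excision repair. It had 122, 127 and 113 CPM in NR LT-HSCs against 92.2, 102 and 95.6 CPM in control LT-HSCs. In NR ST-HSCs it had 166, 136 and 163 CPM, against 101, 94.7 and 95.0 CPM in control ST-HSCs. The libraries of the NR and control groups did not overlap in either cell type. Xpc rose by 0.32 ± 0.08 in LT-HSCs (SE, adjusted p = 0.0239) and by 0.68 ± 0.08 in ST-HSCs (adjusted p = 0.000134). In LT-HSCs the call was lost without NR sample 1 or 2 or control sample 1 or 3 (adjusted p of up to 0.107).

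Ddb2 is the lesion-binding partner that hands ultraviolet damage to Xpc. It had 23.1, 26.1 and 24.6 CPM in NR LT-HSCs against 19.1, 18.7 and 18.03 CPM in control LT-HSCs. Its levels were 26.8, 28.4 and 21.1 CPM in NR ST-HSCs against 16.9, 19.5 and 19.0 CPM in control ST-HSCs. Each NR library lay above each control library of its cell type, although NR ST-HSC sample 3 did so narrowly. Ddb2 rose by 0.40 ± 0.11 in LT-HSCs (adjusted p = 0.0384) and by 0.47 ± 0.11 in ST-HSCs (adjusted p = 0.0116). The LT-HSC call was lost when any 1 of the 6 libraries was left out (adjusted p from 0.0694 to 0.117), and the ST-HSC call without control sample 1 (adjusted p = 0.0587). Of the exon length of Ddb2, 23.8% overlaps Acp2 on the other strand, which was not called.

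Ercc5 (XPG) makes the cut on the 3′ side of the lesion. It had 36.9, 42.3 and 35.6 CPM in NR ST-HSCs against 24.8, 17.99 and 23.3 CPM in control ST-HSCs, with no overlap. In NR LT-HSCs it had 31.3, 27.2 and 23.2 CPM against 21.9, 23.7 and 21.6 CPM in control LT-HSCs, where the groups overlapped. Ercc5 had the largest rise of the 49 genes in ST-HSCs, by 0.80 ± 0.13 (adjusted p = 0.0012), and its change of 0.28 ± 0.13 in LT-HSCs did not pass (adjusted p = 0.245).

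Both translesion polymerases rose in LT-HSCs. Polk, which copies past bulky guanine adducts, had 42.3, 44.2 and 34.4 CPM in NR LT-HSCs against 26.3, 24.4 and 26.9 CPM in control LT-HSCs. In NR ST-HSCs it had 53.5, 43.2 and 40.1 CPM against 29.5, 33.6 and 28.6 CPM in control ST-HSCs. The groups did not overlap in either cell type. Polk rose by 0.64 ± 0.12 in LT-HSCs (adjusted p = 0.00569) and by 0.58 ± 0.12 in ST-HSCs (adjusted p = 0.00552), and both calls held with each library of that cell type left out in turn.

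Polh, which copies past ultraviolet-linked thymines and whose loss causes a variant form of xeroderma pigmentosum in humans, had 23.3, 20.02 and 20.8 CPM in NR LT-HSCs against 16.3, 15.6 and 14.8 CPM in control LT-HSCs. Its levels were 18.3, 24.4 and 18.7 CPM in NR ST-HSCs against 18.2, 16.4 and 17.3 CPM in control ST-HSCs. The groups were clearly apart in LT-HSCs, while in ST-HSCs NR sample 1 and control sample 1 were nearly equal. Polh rose by 0.46 ± 0.12 in LT-HSCs (adjusted p = 0.0269), and its change of 0.24 ± 0.12 in ST-HSCs did not pass (adjusted p = 0.206). The LT-HSC call was lost in 5 of the 6 fits that left out 1 library, all but that without NR sample 2 (adjusted p of up to 0.111).

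**Figure D1:**
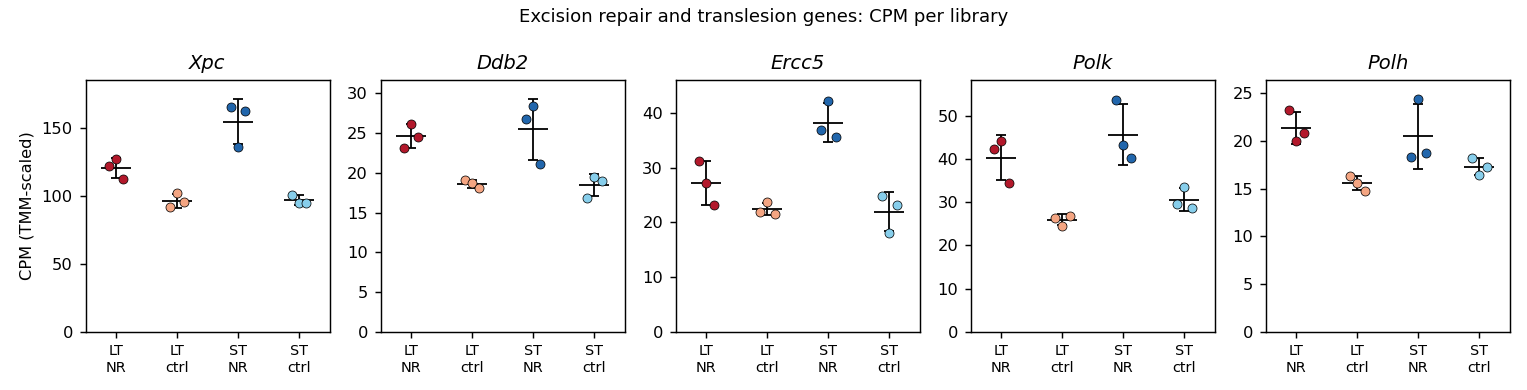
CPM per library of Xpc, Ddb2, Ercc5, Polk and Polh in the 4 groups (points are samples, lines the mean and bars the SD). NR libraries lie above control libraries of the same cell type for each gene except Ercc5 in LT-HSCs, where 23.2 CPM in NR sample 3 is under the 23.7 CPM of control sample 2.

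The genes of end joining fell as far as they encode the Ku and DNA-dependent protein kinase complex: Xrcc5, Xrcc6 and Prkdc fell in both cell types, and Xrcc4, Lig4 and Dclre1c passed in neither. The 6 genes summed to 307 ± 12.4 CPM in NR LT-HSCs and 389 ± 7.22 CPM in control LT-HSCs, and to 302 ± 12.2 CPM in NR ST-HSCs and 412 ± 10.5 CPM in control ST-HSCs (SD, n = 3 each). Lig4, Xrcc4 and Dclre1c, which encode the ligase, its partner and the end-trimming nuclease Artemis, changed by -0.11 to 0.21 in LT-HSCs and by -0.07 to 0.31 in ST-HSCs.

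Xrcc6 (Ku70) had 146, 153 and 145 CPM in NR LT-HSCs against 186, 190.0 and 189 CPM in control LT-HSCs. It had 153, 150.4 and 148 CPM in NR ST-HSCs against 196, 182 and 203 CPM in control ST-HSCs. All 6 NR libraries lay below all 6 control libraries. Xrcc6 fell by 0.35 ± 0.06 in LT-HSCs (adjusted p = 0.00214) and by 0.36 ± 0.06 in ST-HSCs (adjusted p = 0.000727).

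Its partner Xrcc5 (Ku80) had 68.6, 65.8 and 54.5 CPM in NR LT-HSCs against 87.9, 95.6 and 90.2 CPM in control LT-HSCs. In NR ST-HSCs it had 73.1, 56.6 and 58.1 CPM against 94.4, 95.8 and 94.0 CPM in control ST-HSCs. Here too each NR library lay below each control library. Xrcc5 fell by 0.53 ± 0.10 in LT-HSCs (adjusted p = 0.00592) and by 0.60 ± 0.10 in ST-HSCs (adjusted p = 0.00162). The calls of both Ku genes held in each of the 6 fits per cell type that left out 1 library.

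Prkdc, the catalytic subunit that Ku recruits to the break, had 48.7, 52.1 and 52.5 CPM in NR ST-HSCs against 87.6, 93.4 and 94.1 CPM in control ST-HSCs. It had 60.7, 50.1 and 59.0 CPM in NR LT-HSCs against 88.3, 61.4 and 73.4 CPM in control LT-HSCs. The groups lay far apart in ST-HSCs, while in LT-HSCs control sample 2 was close to NR sample 1. Prkdc had the largest fall of the 49 genes in ST-HSCs, by 0.85 ± 0.12 (adjusted p = 0.000331), and fell by 0.39 ± 0.12 in LT-HSCs (adjusted p = 0.0471). The LT-HSC call did not hold without the 2 libraries rich in unassigned reads (adjusted p = 0.109), with relative log expression factors (adjusted p = 0.108), or in the 5 of 6 fits that left out 1 library other than control sample 2 (adjusted p of up to 0.259). It was kept in 5 of 11 other settings.

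Homologous recombination genes were called in ST-HSCs and not in LT-HSCs. Of the 13 genes, 6 fell with NR in ST-HSCs, namely Brca2, Rtel1, Blm, Mre11a, Rad50 and Rad54l, and all 13 had a negative estimate there. In LT-HSCs no gene was called and 7 estimates were positive. The 13 genes summed to 971 ± 43.6 CPM in NR ST-HSCs and 1202 ± 32.4 CPM in control ST-HSCs, and to 1045 ± 84.4 CPM in NR LT-HSCs and 1069 ± 18.0 CPM in control LT-HSCs (SD, n = 3 each).

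Brca2 is a mediator of homologous recombination whose inherited defects raise cancer risk in humans. It had 78.9, 75.2 and 65.0 CPM in NR ST-HSCs against 128, 110.6 and 109 CPM in control ST-HSCs. It had 97.2, 80.2 and 69.9 CPM in NR LT-HSCs against 115, 94.7 and 102 CPM in control LT-HSCs. The groups were apart in ST-HSCs and overlapped in LT-HSCs, where NR sample 1 exceeded control sample 2. Brca2 fell by 0.67 ± 0.12 in ST-HSCs (adjusted p = 0.00213), and its change of -0.33 ± 0.12 in LT-HSCs did not pass (adjusted p = 0.112). With the sample number as a block in the fit, Brca2 (adjusted p = 0.00712) and Lig3 (adjusted p = 0.0462) passed there too.

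Rtel1, a helicase that unwinds telomere loops and dismantles recombination intermediates, had estimates of opposite sign in the 2 cell types. It had 80.4, 83.5 and 92.0 CPM in NR ST-HSCs against 117, 107 and 120.1 CPM in control ST-HSCs. It had 112, 109.5 and 106 CPM in NR LT-HSCs against 88.3, 94.1 and 96.0 CPM in control LT-HSCs. The NR libraries lay below the controls in ST-HSCs and above them in LT-HSCs, with no overlap in either. Rtel1 fell by 0.43 ± 0.07 in ST-HSCs (adjusted p = 0.00107). The change of 0.24 ± 0.07 in LT-HSCs missed the threshold (adjusted p = 0.0523) and passed it with relative log expression factors (adjusted p = 0.0175), with the sample number as a block (adjusted p = 0.0372) and without the 2 libraries rich in unassigned reads (adjusted p = 0.044).

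The other recombination genes that fell in ST-HSCs did so to a lesser degree. Blm, the helicase lost in Bloom syndrome in humans, fell by 0.42 ± 0.10 (adjusted p = 0.00891). Mre11a and Rad50, both parts of the complex that binds and trims broken ends, fell by 0.38 ± 0.10 (adjusted p = 0.0222) and by 0.31 ± 0.07 (adjusted p = 0.00633). Nbn, the third part, changed by -0.18 ± 0.08 (adjusted p = 0.137). Rad54l, a motor protein that moves along DNA during recombination, fell by 0.31 ± 0.08 (adjusted p = 0.0187). None of these 4 calls held without NR ST-HSC sample 3, and those of Mre11a and Rad54l were also lost without NR sample 1 or control sample 1 or 3. Over the libraries left out, the adjusted p reached 0.134 for Blm, 0.12 for Mre11a, 0.143 for Rad50 and 0.167 for Rad54l. Brca1, Bard1, Palb2, Rad51c, Rbbp8 and Xrcc2 passed in neither cell type.

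**Figure D2:**
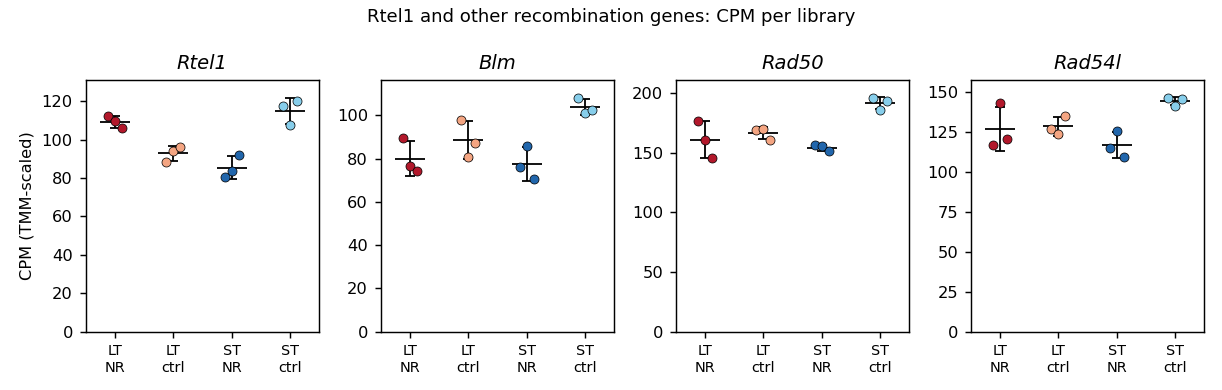
CPM per library of Rtel1, Blm, Rad50 and Rad54l in the 4 groups (points are samples, lines the mean and bars the SD). Rtel1 is higher with NR than in control culture in LT-HSCs and lower in ST-HSCs, while the other genes overlap in LT-HSCs and lie lower with NR in ST-HSCs.

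The Fanconi anaemia pathway behaved likewise: 5 of 9 genes fell with NR in ST-HSCs and none was called in LT-HSCs. They were Fancc, Fanci, Fancd2, Fanca and Fancm, and the 9 genes summed to 372 ± 17.1 CPM in NR ST-HSCs and 472 ± 12.6 CPM in control ST-HSCs (SD, n = 3 each). In LT-HSCs the sums were 415 ± 24.3 CPM with NR and 429 ± 14.1 CPM in control culture.

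Fancc belongs to the core complex that ubiquitinates Fanci and Fancd2. It had 15.4, 16.1 and 17.96 CPM in NR ST-HSCs against 27.5, 24.8 and 26.1 CPM in control ST-HSCs. It had 17.3, 19.7 and 19.2 CPM in NR LT-HSCs against 23.2, 21.6 and 19.9 CPM in control LT-HSCs. The ST-HSC groups were well apart, and the LT-HSC groups nearly touched. Fancc fell by 0.67 ± 0.10 in ST-HSCs (adjusted p = 0.00051) and changed by -0.20 ± 0.10 in LT-HSCs (adjusted p = 0.252).

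Fanci forms the clamp on DNA together with Fancd2. It had 51.2, 65.8 and 59.6 CPM in NR ST-HSCs against 87.5, 91.4 and 92.2 CPM in control ST-HSCs. It had 82.1, 66.4 and 66.0 CPM in NR LT-HSCs against 84.0, 69.4 and 72.3 CPM in control LT-HSCs. In LT-HSCs both groups held 1 high and 2 lower libraries and overlapped. Fanci fell by 0.62 ± 0.11 in ST-HSCs (adjusted p = 0.00187) and changed by -0.07 ± 0.11 in LT-HSCs (adjusted p = 0.765).

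Fancd2 itself fell by 0.52 ± 0.12 in ST-HSCs (adjusted p = 0.00787). Fanca, the core subunit most often mutated in human patients, fell by 0.48 ± 0.09 (adjusted p = 0.00317). Fancm, a translocase that brings the core complex to stalled forks, fell by 0.35 ± 0.10 (adjusted p = 0.0233). The calls of Fancc, Fanci, Fancd2 and Fanca held with each ST-HSC library left out, whereas that of Fancm was lost in 5 of 6 such fits, all but that without NR sample 1 (adjusted p of up to 0.191). Fancb, Fance, Fancg and Fancl passed in neither cell type.

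**Figure D3:**
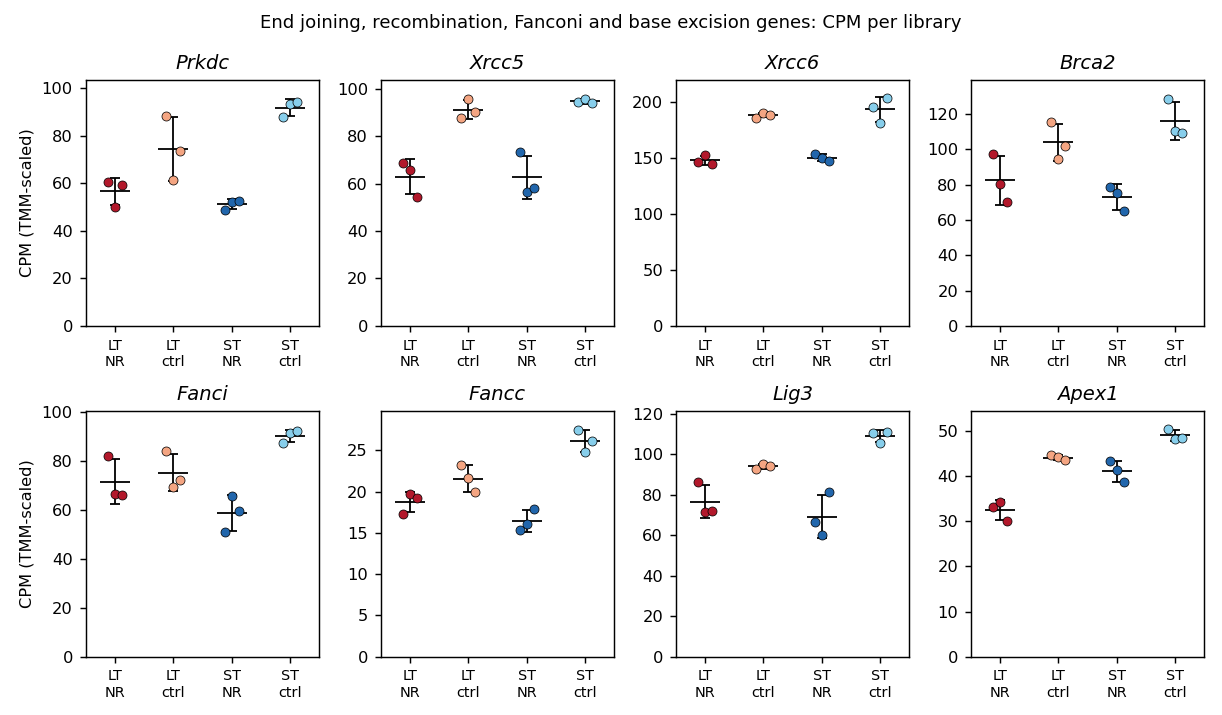
CPM per library of 8 genes that fell with NR, in the 4 groups (points are samples, lines the mean and bars the SD). For Prkdc, Xrcc5 and Xrcc6 the NR libraries lie below the controls in both cell types, and for Brca2, Fanci, Fancc and Lig3 the distance is larger in ST-HSCs, which the test of the difference did not call.

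In checkpoint signalling 3 of 8 genes fell with NR in ST-HSCs and none was called in LT-HSCs. Atr, the kinase that senses single-stranded DNA at stalled forks, fell by 0.58 ± 0.18 (adjusted p = 0.0451). It had 91.7, 72.0 and 78.8 CPM in NR ST-HSCs against 117, 123 and 124 CPM in control ST-HSCs, which did not overlap. Chek1, the kinase downstream of Atr, fell by 0.38 ± 0.08 (adjusted p = 0.0069). Trp53bp1, which steers breaks to end joining, fell by 0.34 ± 0.10 (adjusted p = 0.0345).

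Each of these 3 calls was lost in some fits. That of Atr was lost in 5 of 6 fits that left out 1 library, all but that without NR sample 1 (adjusted p of up to 0.212), and that of Trp53bp1 in all 6 (adjusted p from 0.0552 to 0.14). Of 11 other settings, such as other scaling factors, 7 kept the call of Atr and 5 that of Trp53bp1. That of Chek1 was lost without NR sample 3 (adjusted p = 0.0708). Atm, the kinase that senses double-strand breaks, passed for the averaged effect, with a fall of 0.37 ± 0.11 (adjusted p = 0.0259), as did Rnf168, the ubiquitin ligase that recruits Trp53bp1, with a fall of 0.16 ± 0.05 (adjusted p = 0.032), and both calls were among the unsteady ones given above for the average. Chek2, Mdc1 and Rnf8 passed in no comparison. Under some other settings Chek2 passed as a rise in LT-HSCs, such as upper-quartile factors (adjusted p = 0.0293) and DESeq2 (adjusted p = 0.0381).

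All 5 genes of base excision and single-strand break repair fell for the averaged effect. They summed to 234 ± 11.8 CPM in NR LT-HSCs and 284 ± 1.71 CPM in control LT-HSCs, and to 236 ± 7.81 CPM in NR ST-HSCs and 305 ± 3.44 CPM in control ST-HSCs (SD, n = 3 each). Within a cell type, Apex1 and Ung fell in LT-HSCs, and Apex1 and Lig3 fell in ST-HSCs.

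Apex1 cuts the backbone where a damaged base has been removed. It had 33.2, 34.3 and 30.0 CPM in NR LT-HSCs against 44.6, 44.2 and 43.4 CPM in control LT-HSCs. It had 43.3, 41.2 and 38.7 CPM in NR ST-HSCs against 50.3, 48.2 and 48.3 CPM in control ST-HSCs. The groups did not overlap in either cell type. Apex1 fell by 0.44 ± 0.07 in LT-HSCs (adjusted p = 0.00291) and by 0.26 ± 0.07 in ST-HSCs (adjusted p = 0.0324), and the ST-HSC call was lost in 5 of 6 fits that left out 1 library, all but that without NR sample 1 (adjusted p of up to 0.423). Of its exon length, 61.7% overlaps Pip4p1 on the other strand, which was higher with NR in ST-HSCs by 0.33 (adjusted p = 0.0208). No source used here says whether the counting used the strand, so reads of the 2 genes cannot be told apart.

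Ung removes uracil from DNA. It had 12.1, 14.9 and 12.7 CPM in NR LT-HSCs against 19.0, 17.2 and 22.1 CPM in control LT-HSCs. It had 17.6, 13.2 and 15.7 CPM in NR ST-HSCs against 19.1, 18.7 and 20.8 CPM in control ST-HSCs. The NR libraries lay lower in both cell types, by the widest margin in LT-HSCs. Ung had the largest fall of the 49 genes in LT-HSCs, by 0.55 ± 0.13 (adjusted p = 0.0173), and changed by -0.33 ± 0.13 in ST-HSCs (adjusted p = 0.112). The call was lost without NR sample 1, NR sample 3 or control sample 3 of the LT-HSCs (adjusted p of up to 0.0882) and without the 2 libraries rich in unassigned reads (adjusted p = 0.0823).

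Lig3 seals single-strand nicks and serves mitochondrial DNA. It had 66.6, 59.9 and 81.0 CPM in NR ST-HSCs against 110.2, 106 and 111 CPM in control ST-HSCs. It had 86.0, 71.5 and 72.1 CPM in NR LT-HSCs against 92.8, 94.9 and 94.3 CPM in control LT-HSCs. No NR library reached a control library of its cell type. Lig3 fell by 0.66 ± 0.10 in ST-HSCs (adjusted p = 0.000775) and changed by -0.30 ± 0.10 in LT-HSCs (adjusted p = 0.0928). Of its exon length, 25.1% overlaps Rffl on the other strand, which was not called. For the averaged effect Xrcc1, the scaffold that Lig3 binds, fell by 0.18 ± 0.04 (adjusted p = 0.00939), and Ogg1, which removes oxidised guanine, fell by 0.27 ± 0.09 (adjusted p = 0.0381). The call of Xrcc1 was kept in 6 of 10 other settings (adjusted p of up to 0.319) and that of Ogg1 in 4 of 10 (adjusted p of up to 0.34).

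The 19 genes called in no comparison were Bard1, Brca1, Palb2, Rad51c, Rbbp8 and Xrcc2 of recombination, Fancb, Fance, Fancg and Fancl of the Fanconi pathway, Chek2, Mdc1 and Rnf8 of checkpoint signalling, Dclre1c, Lig4 and Xrcc4 of end joining, Ercc1 and Xpa of nucleotide excision repair, and Msh6 of mismatch repair. Their changes with NR ran from -0.24 to 0.30 in LT-HSCs and from -0.22 to 0.31 in ST-HSCs. The lowest count of any of the 49 genes in a library was 71, for Lig4, whose SE of 0.34 was the widest. Msh6, which recognises mismatched bases, was the most abundant of the 49 genes per kilobase of exon, with 83.6 CPM per kb, and changed by -0.04 ± 0.09 in LT-HSCs and -0.11 ± 0.09 in ST-HSCs. Per kilobase, Xrcc6 (38.0), Nbn (35.4), Rad50 (31.4) and Xrcc5 (30.5) came next, the median of the 49 was 8.93, and Lig4 was lowest at 0.738 CPM per kb.

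The other repair genes were described in the same way. Of 107 further genes of these pathways, 13 fell and 0 rose with NR in LT-HSCs (median change -0.10), and 29 fell and 2 rose in ST-HSCs (median change -0.17). Parp1, which senses strand breaks and consumes NAD, averaged 331 CPM in NR LT-HSCs against 469 CPM in control LT-HSCs, and 325 CPM in NR ST-HSCs against 505 CPM in control ST-HSCs. It fell by 0.50 ± 0.06 in LT-HSCs (adjusted p = 0.000586) and by 0.64 ± 0.06 in ST-HSCs (adjusted p = 3.58e-05). Nthl1, a glycosylase for oxidised pyrimidines, fell by 0.53 ± 0.12 in LT-HSCs (adjusted p = 0.0115) and by 0.64 ± 0.12 in ST-HSCs (adjusted p = 0.00225). Tdg, which removes mispaired thymine, fell by 0.44 ± 0.09 in LT-HSCs (adjusted p = 0.00608), and Polq, the polymerase of alternative end joining, fell by 0.60 ± 0.13 in ST-HSCs (adjusted p = 0.00511). The 2 genes that rose in ST-HSCs were Mgmt, which strips alkyl groups from guanine, by 0.55 ± 0.12 (adjusted p = 0.00622), and Gtf2h1, a subunit of the excision repair and transcription factor TFIIH, by 0.34 ± 0.07 (adjusted p = 0.00396).

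The 5 genes called as rises are all among 6 genes with textbook induction by p53. That list was written with earlier results of these data known, so its higher sum with NR follows from its choice and is no further result. Of the 6, Ddb2, Polh, Polk and Xpc rose in LT-HSCs, and Ddb2, Ercc5, Polk and Xpc rose in ST-HSCs, where Fancc fell. For Ddb2 that induction is known from human cells, and the mouse gene has been described as not responding. The 6 genes summed to 235 to 264 CPM in NR LT-HSCs against 197 to 206 CPM in control LT-HSCs, and to 291 to 317 CPM in NR ST-HSCs against 207 to 218 CPM in control ST-HSCs. Over all genes tested, 2.38% rose in LT-HSCs and 5.82% in ST-HSCs. Of 20 p53 targets outside repair, 14 rose and 0 fell in LT-HSCs (median change 0.94), and 17 rose and 0 fell in ST-HSCs (median change 1.47). Their sum was 1130 to 1280 CPM in NR LT-HSCs against 677 to 755 CPM in control LT-HSCs, and 1580 to 1870 CPM in NR ST-HSCs against 659 to 690.1 CPM in control ST-HSCs.

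Cell cycle genes moved beside the genes that fell. Of 22 genes of DNA replication and S phase, 7 fell and 0 rose in LT-HSCs (median change -0.25), and 9 fell and 0 rose in ST-HSCs (median change -0.22). Their sum was 5860 to 6420 CPM in NR LT-HSCs against 7110 to 7500 CPM in control LT-HSCs, and 6220 to 7140 CPM in NR ST-HSCs against 7680 to 7860 CPM in control ST-HSCs. Of 20 genes of G2 and mitosis, 0 were called in LT-HSCs (median change 0.05), while 8 fell and 0 rose in ST-HSCs (median change -0.40). Their sum was 4780 to 5780 CPM in NR LT-HSCs against 4970 to 5230 CPM in control LT-HSCs. In ST-HSCs it was 3742, 5345 and 3794 CPM in NR samples 1 to 3, against 5430 to 5650 CPM in control samples, so that NR sample 2 lay near the controls. Among the 49 genes, 14 are known to be expressed mainly in S phase. Of these, 1 fell in LT-HSCs and 7 fell in ST-HSCs, and their sum was 1070 to 1210 CPM in NR ST-HSCs against 1360 to 1450 CPM in control ST-HSCs. The part of the cell cycle and of p53 in the changes of the repair genes was not tested.

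**Figure D4:**
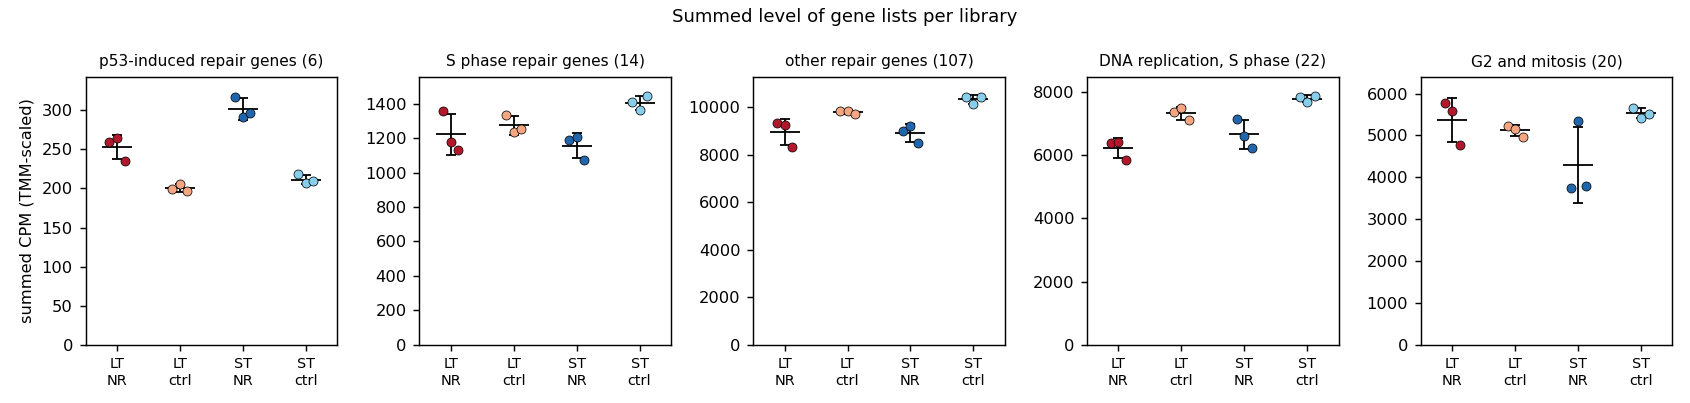
Summed CPM per library of 5 gene lists in the 4 groups (points are samples, lines the mean and bars the SD, number of genes in parentheses). The repair genes with textbook p53 induction lie higher with NR in both cell types. That list was written with earlier results known and holds all 5 genes called as rises, so its higher sum follows from its choice. Other repair genes and S phase genes lie lower in both cell types. The S phase repair genes and G2 genes lie lower in ST-HSCs, where NR sample 2 of the G2 list is near the controls.

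The test of the difference between the NR effects (ST-HSCs minus LT-HSCs) called none of the 49 genes, while 0.0101% of all genes were called. Without adjustment 11 of the 49 had p under 0.05. That count was not made for all genes, so it has no background and no conclusion is drawn from it. DESeq2 called 1 of the 49, Rtel1, and 1.15% of all genes it tested. The estimate was more negative in ST-HSCs than in LT-HSCs for 36 of the 49 genes, with a median difference of -0.12, where that of all genes was -0.05. It was more negative for 11352 of all 19830 genes. Among genes with a mean of at least 5 CPM it was so for 5141 of 10473, with a median difference of 0.003. Rtel1 had the largest difference, -0.67 ± 0.10 (adjusted p = 0.0779). It was followed by Fanca at -0.48 ± 0.13 (adjusted p = 0.481) and Fanci at -0.55 ± 0.16 (adjusted p = 0.5) in order of p. The adjusted p of Rtel1 was 0.0239 with the sample number as a block, 0.0181 with a stricter filter, 0.0265 with limma-voom and 2.57e-07 with DESeq2. It was 0.0551 to 0.319 when single libraries were left out with the same genes tested, and 0.118 without the 2 libraries rich in unassigned reads. The larger number of calls in ST-HSCs is therefore not shown to be a larger effect.

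Between LT-HSCs and ST-HSCs few of the 49 genes differed. In control culture 0 were higher in LT-HSCs and 1 was lower, Rtel1, while 3.51% of all genes were higher and 1.5% lower, 5.01% in all. Rtel1 was lower in LT-HSCs by 0.31 on the log2 scale (SE 0.07, adjusted p = 0.0205), and this call was lost without control LT-HSC sample 1 or 2 or control ST-HSC sample 1 or 3 (adjusted p of up to 0.106). With NR 1 gene was higher in LT-HSCs and 3 were lower, while 3.8% of all genes were higher and 2.27% lower, 6.07% in all. Rtel1 was then higher in LT-HSCs, by 0.36 ± 0.07 (adjusted p = 0.00757), and this call held with each library left out. Xpc (log2 difference -0.36 ± 0.08, adjusted p = 0.0173), Ercc5 (-0.49 ± 0.13, adjusted p = 0.0455) and Apex1 (-0.34 ± 0.07, adjusted p = 0.0161) were lower in LT-HSCs with NR. With the sample number as a block in the fit, which treats same-numbered libraries as matched, Fanca was also higher in LT-HSCs with NR (log2 difference 0.30, adjusted p = 0.0261, against 0.0817 without the block). None of the calls of Xpc, Ercc5 and Apex1 held without the 2 libraries rich in unassigned reads, where Rtel1 alone was called. Without NR LT-HSC sample 2 or 3 or NR ST-HSC sample 1, Rtel1 alone was called as well, and without NR ST-HSC sample 3 Rtel1 and Apex1 were. The comparisons of LT-HSCs with ST-HSCs use the same libraries as the NR comparisons and are not independent of them.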

How the data were processed

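RNA of 12 libraries was analysed from 1 deposited table of counts of reads per Ensembl gene, made by the authors. The tools named in the submitters' processing notes are FastQC 0.11.2 for read quality, STAR 2.5.0b for alignment and HTSeq 0.6.1 for counting. Build, annotation and strand setting: not given in the sources used here. Of the columns, 0 were left unused. Per the labels' protocols, cDNA came from SMART-seq v4 amplification and Nextera XT tagmentation. These libraries carry no molecular identifiers, so amplification is part of the spread. Rows naming no gene stayed out of library sizes: reads in no feature were 8.69% to 28.55% and ambiguous reads 3.30% to 4.38%. A gene and its neighbour on the other strand could share reads.

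Groups came from the labels. Counts were tested with edgeR 4.0.16 in R 4.3.3 (quasi-likelihood, two-sided, TMM factors, filterByExpr with minimum count 10 and minimum total 15) on all 12 libraries with 4 group means and 8 residual degrees of freedom. The filter kept 19830 genes, over which p-values were adjusted by Benjamini-Hochberg. CPM were computed from the counts with TMM factors, and CPM per kb with the summed exon length in GENCODE M21. Gene symbols came from the same annotation and matched 53274 of 53465 genes. Replicates were compared by chi-square, which per degree of freedom was 6.31 at the lowest and 37.6 at the highest, so no pair was a duplicate. The test was run on simulated data before use.

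Alternatives were other scaling factors, no filter and a stricter one (mean of at least 5 CPM), DESeq2 1.42.0, limma-voom 3.58.1 with quality weights, the groups compared only, the sample number as a block, the unassigned share as a covariate, no 2 libraries richest in unassigned reads, and each library left out. Same-numbered samples deviated together in the NR comparison of LT-HSCs (correlations from 0.25 to 0.713) and of LT-HSCs with ST-HSCs under NR (0.151 to 0.839), and so the numbers pair them there. The labels do not say what a number stands for.

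The members, gene lists and tests were chosen with earlier results of these data known. Genes called in any comparison are named with values, and values per sample are given for the up to 6 largest called rises and falls of each comparison, with Atr added after its values were seen. Motifs were searched in RefSeq promoters.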

Additional observations from a re-analysis of the deposited data

Results flagged for a closer look

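Rtel1 and Fanci stood out because the libraries of one contrast moved one way in one setting and the opposite way in the other. Rtel1 lay higher with NR than in control culture in every LT-HSC library and lower in every ST-HSC library, and the difference of its log2 changes (ST-HSCs minus LT-HSCs) was -0.67. Seen across cell types, Rtel1 lay higher in LT-HSCs than in ST-HSCs with NR and lower in control culture, which is the same difference with the opposite sign, 0.67. In the edgeR test of the difference across all genes its adjusted p was 0.0779, which missed the threshold.

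Fanci lay higher in LT-HSCs than in ST-HSCs in every library with NR and lower in every library of control culture. With NR the groups nearly touched, at 65.97 CPM in NR LT-HSC sample 3 and 65.79 CPM in NR ST-HSC sample 2. Fanci was not called between the cell types with NR (adjusted p = 0.192 in edgeR) or in control culture. Its log2 difference of LT-HSCs over ST-HSCs was 0.28 ± 0.11 with NR and -0.26 ± 0.11 in control culture (SE), and these differed by 0.55. The adjusted p of that difference in edgeR was 0.5. Both genes share all 12 libraries, and no cause was tested.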

How the results depend on the processing

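No call of the 49 genes changed sign under any alternative that was run. Of the called genes, Apex1, Polk, Xrcc5 and Xrcc6 in LT-HSCs and Brca2, Ercc5, Fanca, Fancc, Fancd2, Fanci, Lig3, Polk, Prkdc, Rtel1, Xpc, Xrcc5 and Xrcc6 in ST-HSCs kept their call under all 11 other settings and with each library left out with the same genes tested. Kept in the fewest of the 11 other settings in ST-HSCs were the calls of Fancm (4), Apex1 (5), Trp53bp1 (5), Atr (7) and Mre11a (7). For the average, 15 of 27 calls were kept throughout, and those lost in a setting were Atm, Blm, Fanca, Fancd2, Fancm, Mre11a, Nbn, Ogg1, Rad50, Rnf168, Trp53bp1 and Xrcc1. The number called stayed within 1.5 times of 9 in LT-HSCs, of 23 in ST-HSCs and of 27 for the average under every setting that left out no single library.

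With 1 library left out and the same genes tested, 4 to 7 were called in LT-HSCs, 15 to 21 in ST-HSCs, 15 to 27 for the average, 0 for the difference of effects, 0 to 2 between cell types in control culture and 1 to 5 with NR. With the low-count filter applied again, which tests more genes, these numbers were 0 to 3, 7 to 12, 13 to 22, 0, 0 and 0 to 2. The cause was not tested. Over all genes the share called fell too. With the same genes tested it was as low as 5.6% in LT-HSCs and 11.8% in ST-HSCs. With the filter applied again it was as low as 0.806% and 5.05%. The difference of effects called 1 gene, Rtel1, with no filter, a stricter filter, the block, the covariate, DESeq2 and limma-voom, and 0 otherwise. The comparison of the cell types in control culture gave 1 gene, 0 with no filter, 2 with upper-quartile factors, TMM factors from genes of at least 5 CPM, a stricter filter, the block or DESeq2, 3 with the covariate or only the groups compared, and 5 with limma-voom. With NR it gave 4 genes, 1 with only the groups compared or without the 2 libraries richest in unassigned reads, 3 with limma-voom, 5 with no filter or the block, and 6 with a stricter filter or DESeq2.

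With the sample number as a replicate block, 12 genes were called in LT-HSCs, 25 in ST-HSCs, 29 for the average, 1 for the difference, 2 between cell types in control culture and 5 with NR. In LT-HSCs the block added Brca2, Lig3 and Rtel1 and lost no call. In ST-HSCs and in control culture the same-numbered samples did not all deviate together (correlations from -0.061 to 0.669 and from -0.232 to 0.43). Other scaling shifted the NR changes of these genes up by 0.05 to 0.09 on the log2 scale, so that 55.6% to 60% of calls were rises in LT-HSCs, against 44.4%, and 34.8% to 42.1% for the averaged effect, against 18.5%. Over all genes the share moved likewise, to 35.3% to 43.6% in LT-HSCs, against 23.9%, to 47.9% to 54.4% in ST-HSCs, against 34.5%, and to 46% to 53% for the averaged effect, against 32.9%. The lowest count was 71, for Lig4, and the part of depth in its error was not tested.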
